A study of Mus musculus with 4 samples.

Results

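The genes of sterol and fatty acid synthesis were examined in MEFs, mouse embryonic fibroblasts (a culture of embryo connective tissue), with and without 3 delivered germ line and early embryo genes. The set held 29 genes, fixed by name: 18 enzymes of the route from acetyl-CoA to cholesterol, 5 regulators and carriers of sterols, and 6 enzymes that make, lengthen or desaturate fatty acids. They were 29 of 39179 genes in the deposited table, 28 matched by name and Msmo1 by its Ensembl identifier, since the table lists it as Sc4mol. All 29 had enough reads to be tested, among 15283 tested genes.

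The cells were MEFs of strain BALB/c at passage 2, and 2 groups of 2 RNA libraries were compared. The SON libraries (SON I and II) came from cells carrying a lentivirus for Nanos2, Oct4 (Pou5f1) and Stella (Dppa3). The GFP control libraries (GFP control I and II) came from cells carrying a lentivirus with green fluorescent protein. Both groups were selected with 2 µg/ml puromycin from 72 h after infection for 4 days and were then cultured for 21 days without it. All cells therefore carried a lentivirus and had been through the drug, and the labels name neither the promoter that drove the delivered genes nor an uninfected culture. Whether the 2 libraries of a group came from separate cultures or embryos is not stated either, and a p-value here reflects only how these libraries varied, which may be technical. The delivered genes and the cultures that received them coincide, and their effects cannot be told apart.

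Cholesterol is built from acetyl-CoA through mevalonate, the isoprenoid farnesyl pyrophosphate, squalene and lanosterol. Long-chain fatty acids are built from the same acetyl-CoA by way of malonyl-CoA. In most mammalian cells, fibroblasts included, both routes are governed by sterol regulatory element binding proteins (SREBPs), membrane-bound transcription factors. When sterols run low the escort protein Scap carries them to the Golgi, where they are cut free, and when sterols are plentiful Insig proteins hold Scap back in the endoplasmic reticulum. SREBP-2 is known mainly for the sterol enzymes and SREBP-1 mainly for the fatty acid enzymes.

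Promoters of 23 of the 29 genes matched the RefSeq table (GRCm38.p6, 250 bases before to 50 bases after each start, 29 promoters for these genes). Those of the other 6 genes, Sqle, Scd1, Stard4, Fdps, Scd2 and Fdft1, were not matched and were not searched. The promoters of Hmgcs1 and Fasn are shown. Of the 23 genes searched, Hmgcs1 was the gene with the core of the classic sterol response element in this window. Fasn had the smallest limma p among the searched genes without it. The printed run of Hmgcs1 spans chr13:119690101-119690400 on the plus strand and that of Fasn chr11:120824498-120824797 on the minus strand. Capitals mark the letters TCACNCCAC and ATTGG on either strand.
Hmgcs1 promoter: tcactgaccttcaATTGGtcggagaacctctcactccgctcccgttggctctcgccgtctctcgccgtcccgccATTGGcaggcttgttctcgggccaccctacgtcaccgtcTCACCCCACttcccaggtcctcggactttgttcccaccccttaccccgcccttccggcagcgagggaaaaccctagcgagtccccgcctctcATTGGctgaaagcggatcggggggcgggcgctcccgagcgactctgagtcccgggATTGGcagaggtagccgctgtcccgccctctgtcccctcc
Fasn promoter: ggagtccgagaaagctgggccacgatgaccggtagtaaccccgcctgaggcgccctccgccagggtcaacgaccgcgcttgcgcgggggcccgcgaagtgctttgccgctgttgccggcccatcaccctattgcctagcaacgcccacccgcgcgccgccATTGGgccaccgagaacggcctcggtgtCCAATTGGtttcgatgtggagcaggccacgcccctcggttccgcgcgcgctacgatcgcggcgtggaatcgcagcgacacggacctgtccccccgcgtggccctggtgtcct
In Hmgcs1 the letters TCACCCCAC stood at bases 114 to 122 of the printed run, counted from its 5′ end, and ATTGG occurred at 4 places. In Fasn ATTGG, whose reverse complement is the CCAAT box bound by the factor NF-Y, occurred at 3 places over both strands, 2 of them sharing bases.

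Over all matched promoters of the set, both strands searched, TCACNCCAC was found in 1 of 29 (3.45%, against 1.24% of 32851 promoters). Its form TCACCCCAC was found in the same promoter (0.551% of all promoters). ATTGG was found in 20 of 29 (69.0% against 37.4%), GGGCGG, the Sp1 box, in 22 (75.9% against 35.7%), and the E-box CACGTG in 6 (20.7% against 7.15%). Some genes have more than 1 promoter in this count, and the windows of Scap share the same E-box. By gene, ATTGG was found in 19 of 23, GGGCGG in 19 and CACGTG in 5. A match describes letters in this window and shows no binding.

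Reads in genes came to between 28924700 and 37097571 in the GFP control libraries and between 14680865 and 17365551 in the SON libraries. Each of the 3 delivered genes had at most 1 read in each GFP control library and at least 201 reads in each SON library, as labelled. All 12 fibroblast markers were read in these libraries. Each marker of the other cell types searched was also read in some library, so being read did not set the fibroblast markers apart. The libraries differed within groups: the summed level of 20 cell division genes was 15299 and 21010 in GFP control I and II, and 33961 and 11918 normalized counts in SON I and II. The summed level of 8 smooth muscle genes was 129676 and 145174 in the GFP control, 399177 in SON I and 116935 in SON II. Summed fibroblast markers came to 700326 and 338823 in the GFP control, with 275783 and 243531 in SON, and 10 epithelial markers summed to 186 and 386 in the GFP control and to 664 and 997 in SON. Neither sum stood for all of its markers. Thy1, Vim and S100a4 of the 12 fibroblast markers had positive log2 differences (0.33, 0.28 and 0.42), and the epithelial sum in SON was mostly Dsp and Krt19, with Cdh1 and Epcam at 11.8 normalized counts or fewer and 3 of 10 tested. In bulk RNA, fewer cells of a type and less RNA per cell cannot be told apart.

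Between the groups, no gene of the set passed the test over all genes. Limma, a linear model on log2(normalized count + 1), called 0 of 29 at an adjusted p under 0.05 (smallest adjusted p = 0.246), where 0.0523% of all tested genes were called. At an unadjusted p under 0.05 it gave 2 members higher in SON, Fasn and Acaca, and 0 lower, against 5.99% higher and 6.57% lower of all tested genes, so the share of members that were higher was close to the background. The edgeR quasi-likelihood test called 0, and the authors' deposited table calls 1 member higher, Fasn, and 0 lower, against 1.48% and 2.59% of the genes it tests. The median log2 difference was -0.04 over the 29 genes and -0.01 over all tested genes. By role it was -0.06 for the sterol enzymes, -0.15 for the regulators and carrier and 0.18 for the fatty acid enzymes.

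**Figure D1:**
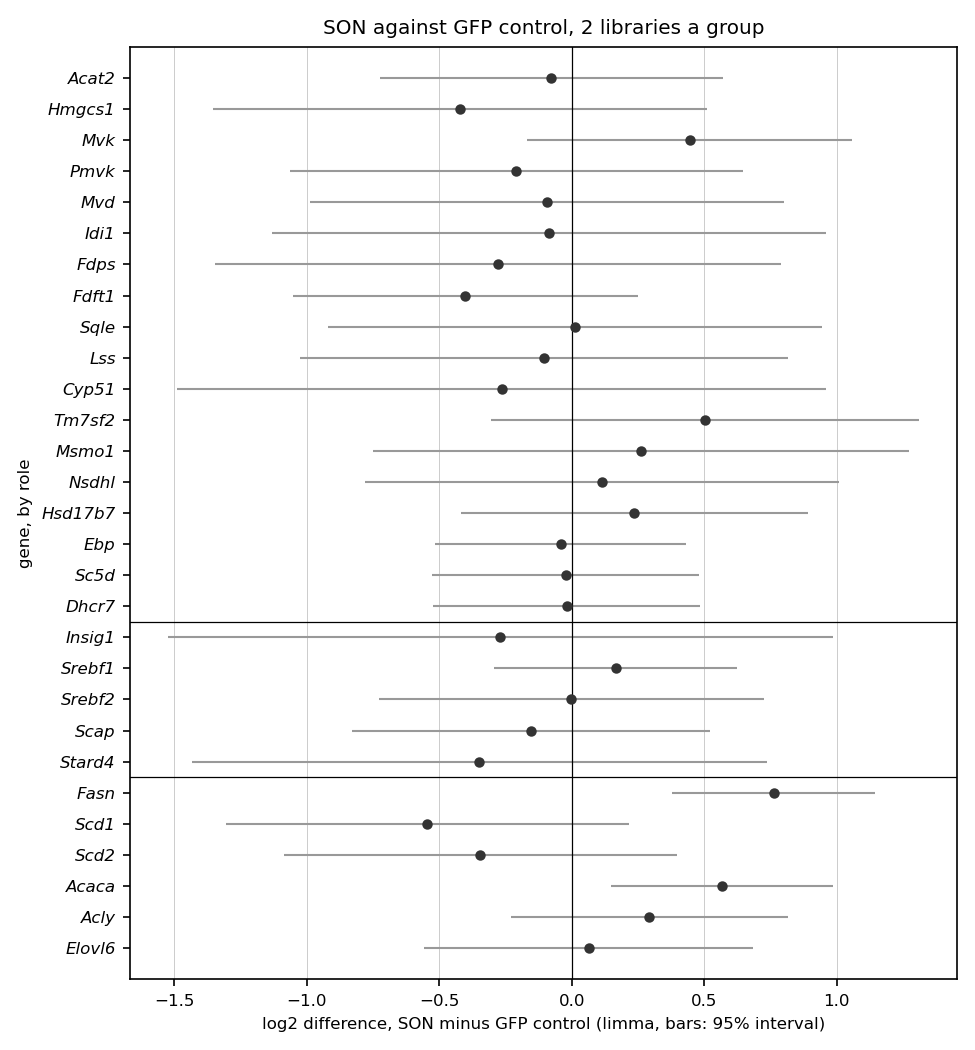
Log2 difference SON minus GFP control for each of the 29 genes (x axis), in order of their role (y axis); points are limma estimates over 2 libraries a group and bars are 95% intervals. The intervals of Fasn (0.38 to 1.15) and Acaca (0.15 to 0.98) lie above 0 and those of the other genes include 0.

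The values in single libraries followed a pattern that the group means hide. In 18 of 29 genes SON I lay above both GFP control libraries and SON II below both, an order seen in 11.9% of all tested genes. These were 13 of the 18 sterol enzymes, 3 of the 5 regulators and carrier (Insig1, Srebf2 and Stard4) and 2 of the 6 fatty acid enzymes (Scd2 and Elovl6). Both SON libraries lay above both GFP control libraries for 4 genes (Mvk, Tm7sf2, Fasn and Acaca, against 22.2% of all tested genes) and below them for 2 (Fdft1 and Scd1, against 23.7%). Values per gene are given as normalized counts, in which the authors scaled each library's reads by its own size factor.

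**Figure D2:**
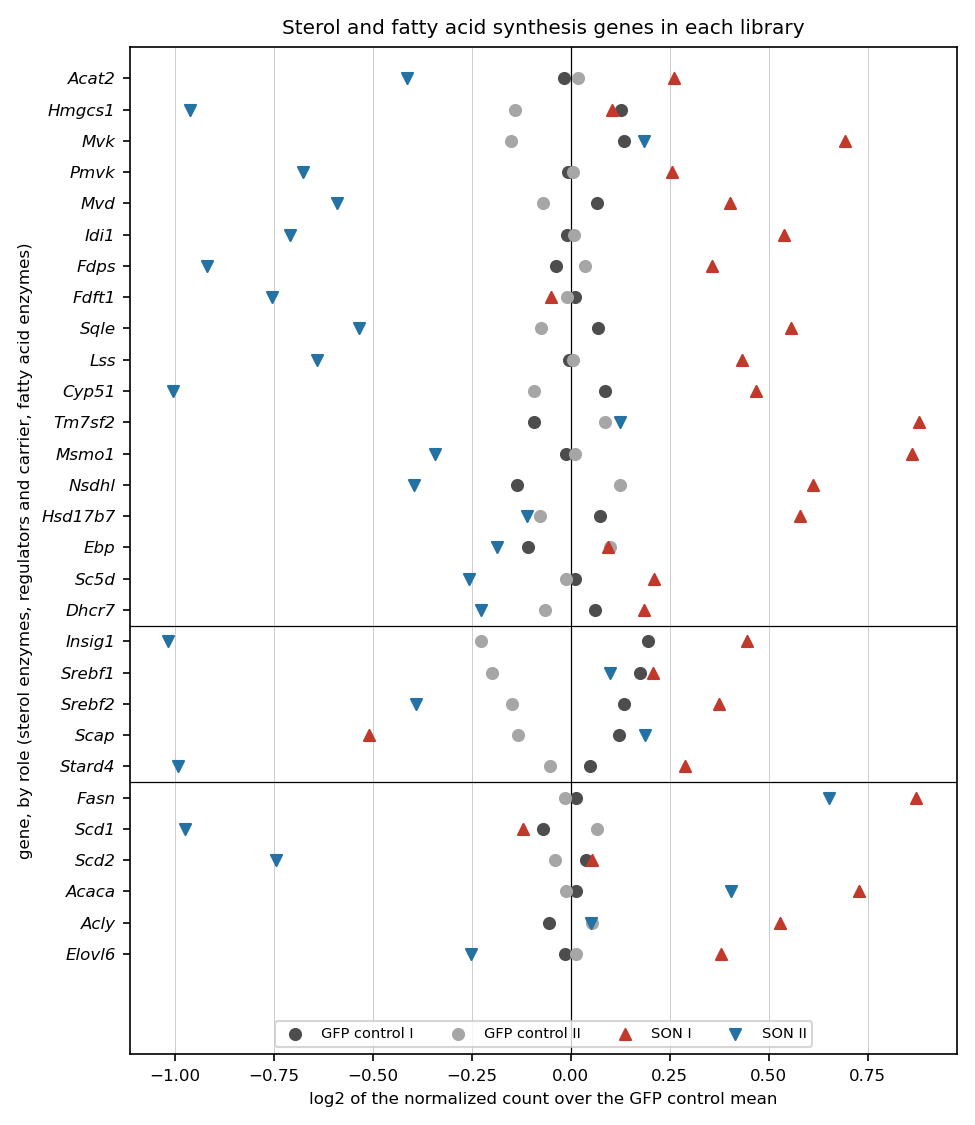
Log2 of each gene's normalized count over the mean of the 2 GFP control libraries (x axis), 1 row per gene and 1 marker per library. SON I (red) lies to the right of SON II (blue) in all rows but Scap, and for 13 of 18 sterol enzymes the GFP control libraries (grey) lie between them.

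The first steps make mevalonate and turn it into isoprenoids. Acat2, the cytosolic thiolase that joins acetyl-CoA units, measured 785 and 804 in the GFP control, against 952 in SON I and 596 in SON II. Hmgcs1, the synthase that feeds the mevalonate pathway (ENSMUSG00000093930), measured 3575 and 2969 in the GFP control, against 3515 and 1680 in SON. SON I thus lay within the GFP control values and SON II below them, for a log2 difference of -0.42 ± 0.37 (SE, n = 2 per group, 95% interval -1.35 to 0.51, limma adjusted p = 0.691). Mvk, the first mevalonate kinase, measured 474 and 389 in the GFP control, and SON gave 698 and 491, where both SON libraries were higher (log2 0.44, 95% interval -0.17 to 1.06, limma adjusted p = 0.519).

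Pmvk, the next kinase, measured 416 and 420 in the GFP control, against 499 and 261 in SON. Mvd, which makes isopentenyl pyrophosphate, measured 486 and 443 in the GFP control, and SON gave 614 and 308. In both genes SON I and SON II lay on opposite sides of the GFP control. The same held for Idi1, the isomerase of isopentenyl pyrophosphate, with 1364 and 1380 in the GFP control, against 1992 and 839 in SON. Fdps, which makes farnesyl pyrophosphate, the branch point to sterols and to prenylated proteins, measured 1837 and 1935 in the GFP control, and SON gave 2416 and 997. Between the groups its log2 difference was -0.28 (95% interval -1.35 to 0.79), an interval that leaves room for a change of either sign.

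The next enzymes join farnesyl units into squalene and close the ring. Fdft1, squalene synthase, measured 1810 and 1784 in the GFP control, against 1737 and 1065 in SON. Both SON values were lower, SON I by less than the gap between SON I and II (log2 -0.40, 95% interval -1.05 to 0.25, limma adjusted p = 0.579). Exons of Fdft1 overlap those of Ctsb, a highly read protease gene on the opposite strand, over 18.3% of their length, and reads without strand cannot be told apart there. Exons of Fdps, Scap, Hmgcs1 and Tm7sf2 overlap other genes by 26.7%, 13.2%, 12.1% and 12.1% of their length. Sqle, the epoxidase of squalene, measured 1888 and 1709 in the GFP control, and SON gave 2644 and 1243. Lss, the cyclase that makes lanosterol, measured 975 and 982 in the GFP control, against 1320 and 627 in SON. For Sqle and Lss the GFP control libraries again lay between the SON libraries.

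Lanosterol is then trimmed to cholesterol. Cyp51, the demethylase of lanosterol (ENSMUSG00000001467, chromosome 5, 4081145 to 4104746), measured 2881 and 2541 in the GFP control, and SON gave 3752 and 1351, the widest gap between the SON libraries in the set as a ratio. Its group difference was -0.26 on the log2 scale with a 95% interval from -1.49 to 0.96. Msmo1, the methyl sterol oxidase, measured 2197 and 2233 in the GFP control, against 4029 and 1748 in SON. Nsdhl, a dehydrogenase of the same demethylation, measured 1045 and 1250 in the GFP control, and SON gave 1754 and 873. In these 3 genes SON I was the highest and SON II the lowest library.

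Hsd17b7, the ketoreductase of that step, measured 1219 and 1097 in the GFP control, against 1729 and 1072 in SON. Tm7sf2, a sterol reductase, had the lowest counts of the set, 153 and 173 in the GFP control, and SON gave 300 and 178. SON II exceeded GFP control II by a small margin there, so the groups did not overlap, with a log2 difference of 0.50 (95% interval -0.30 to 1.31, limma adjusted p = 0.576). Ebp, the sterol isomerase, measured 579 and 668 in the GFP control, against 665 and 548 in SON, with overlapping groups. The last enzymes varied less. Sc5d, a desaturase, measured 1238 and 1219 in the GFP control, and SON gave 1422 and 1028. Dhcr7, the reductase of dehydrocholesterol, measured 748 and 685 in the GFP control, against 814 and 613 in SON. The group differences of Ebp, Sc5d and Dhcr7 were -0.04, -0.02 and -0.02 on the log2 scale, and the widest ends of their 95% intervals were -0.53 (Sc5d) and 0.48 (Dhcr7).

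Among the regulators, Insig1, which retains Scap and is itself a target of SREBPs (ENSMUSG00000045294), measured 1934 and 1444 in the GFP control, and SON gave 2302 and 834. Stard4, a carrier of cholesterol within cells, measured 828 and 772 in the GFP control, against 978 and 402 in SON. Srebf2, the gene of SREBP-2, measured 2559 and 2101 in the GFP control, and SON gave 3019 and 1777. All 3 had the order of most sterol enzymes, SON I highest and SON II lowest. Srebf1, the gene of SREBP-1, measured 1303 and 1006 in the GFP control, against 1334 and 1237 in SON. Its SON libraries differed less than its GFP control libraries did. Scap, the escort of the SREBPs, went the other way, with 2330 and 1956 in the GFP control, 1505 in SON I and 2443 in SON II. The group differences of the 5 genes ran from -0.35 (Stard4) to 0.17 (Srebf1), and the smallest limma adjusted p was 0.757.

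The fatty acid enzymes split. Fasn, the fatty acid synthase (ENSMUSG00000025153, chromosome 11, 120805846 to 120824547), measured 3944 and 3870 in the GFP control, and SON gave 7153 and 6139, a ratio of means of 1.70. Both SON libraries lay well above both GFP control libraries, which differed by little. The log2 difference was 0.76 ± 0.15 (SE, n = 2 per group, 95% interval 0.38 to 1.15, unadjusted p = 0.00356, limma adjusted p = 0.246, rank 221 of 15283 genes). The authors' deposited table gives Fasn a log2 fold change of 0.74 with an adjusted p of 0.0230. DESeq2 rerun on the recovered reads gave an adjusted p of 0.00686, in a test that called 1.67% of its genes higher. With DESeq2 the call was lost without GFP control I (adjusted p = 1.00), GFP control II (0.526) or SON I (0.143) and held without SON II (0.0188), at log2 differences between 0.67 and 0.87.

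Acaca, the acetyl-CoA carboxylase that makes the malonyl-CoA used by Fasn (ENSMUSG00000020532, chromosome 11, 84129672 to 84401651), measured 1452 and 1427 in the GFP control, against 2385 and 1907 in SON. Here too the groups did not overlap (log2 0.57 ± 0.16, n = 2 per group, 95% interval 0.15 to 0.98, limma adjusted p = 0.307; 0.243 in the authors' deposited table). Acly, which makes cytosolic acetyl-CoA from citrate for both routes, measured 5558 and 5995 in the GFP control, and SON gave 8335 and 5987. Only SON I was clearly above the GFP control. Elovl6, which lengthens the product of Fasn, measured 708 and 722 in the GFP control, against 930 and 601 in SON.

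The desaturases of stearoyl-CoA did not share the direction of Fasn and Acaca. Scd1 measured 3630 and 3985 in the GFP control, and SON gave 3503 and 1939. Scd2, its paralog and the form with more reads here, measured 12011 and 11372 in the GFP control, against 12140 and 6977 in SON. For both, SON I was near the GFP control and SON II was the lowest library. Their log2 differences were -0.55 (95% interval -1.31 to 0.22, limma adjusted p = 0.522) and -0.34 (95% interval -1.09 to 0.40, limma adjusted p = 0.685). Reads from Scd1 and Scd2, similar in sequence, may have been split by the authors' counting. The summed level of 12 fat cell markers was lower in both SON libraries, 1529 and 1440 normalized counts against 16221 and 5303, most of it Lpl. Fabp4, a fatty acid carrier of fat cells, measured 848 and 846 in the GFP control, against 113 and 225 in SON. Of 8 tested markers 5 were negative and 3 positive between the groups (Pparg 0.68, Plin4 0.22 and Cfd 0.11 on the log2 scale). Of the 4 too weakly read to be tested, the lipid droplet protein Plin1 had at most 14.9 normalized counts in any library. The part of fat cell RNA in the fatty acid genes was not tested.

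The gap between the SON libraries is a value of 1 library against another and has no replicate check. SON I exceeded SON II in all 18 sterol enzymes, in 4 of 5 regulators and carrier and in all 6 fatty acid enzymes, 28 of 29 in all, against 52.5% of all tested genes. It was at least 1.5-fold higher in 20 of 29, against 13.8%. The median log2 difference SON I minus SON II was 0.96 for the sterol enzymes, 0.76 for the regulators and carrier, 0.55 for the fatty acid enzymes and 0.03 over all tested genes. The ratio SON I over SON II was 2.78 for Cyp51 (exact 95% interval 2.58 to 2.995), 2.76 for Insig1 (2.51 to 3.04), 2.43 for Stard4 (2.11 to 2.80), 2.42 for Fdps (2.22 to 2.65) and 2.38 for Idi1 (2.15 to 2.62). At the other end it was 1.17 for Fasn (1.12 to 1.21), 1.08 for Srebf1 (0.982 to 1.18) and 0.616 for Scap (0.571 to 0.665). These intervals cover counting error only. Between the GFP control libraries the sterol enzymes showed no common direction: GFP control I exceeded II in 9 of 18, with a median log2 difference of 0.00 and a range from -0.26 to 0.28. The fatty acid enzymes split too, 3 of 6. The regulators and carrier had a common direction there, with GFP control I above II in 5 of 5 (median 0.28, range 0.10 to 0.42). Over all tested genes GFP control I exceeded II in 7917 of 15283 (median 0.01).

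Cell division genes moved with the same libraries. All 20 were at least 1.5-fold higher in SON I than in SON II (median log2 1.70), and in 17 of them the GFP control lay between. Between the GFP control libraries they had a common direction, with GFP control I below II in 20 of 20 (median -0.48). Over all tested genes GFP control I was above II in 7917 of 15283. The 8 smooth muscle genes were also all higher in SON I (median 1.87), and 10 of 10 tested macrophage markers were lower there (median -1.75). The part of cell division or of these cell types in the sterol genes was not tested.

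The sign of the group medians depended on which SON library was kept. Without SON II the limma median of the sterol enzymes was 0.42, and without SON I it was -0.47, against -0.06 with all libraries. For all 29 genes it was 0.38 and -0.39. DESeq2 without SON I called 4 members lower, Cyp51, Scd1, Hmgcs1 and Fdps, with log2 differences from -0.98 to -0.90 and adjusted p from 0.0173 to 0.0461, where it called 2.1% of its genes lower. Without SON II it called 2 higher, Msmo1 (log2 0.86, adjusted p = 0.0268) and Fasn, where it called 2.43% higher. In these fits the lone SON library is assumed to vary as the GFP control libraries do, and limma called 0 members in each.

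**Figure D3:**
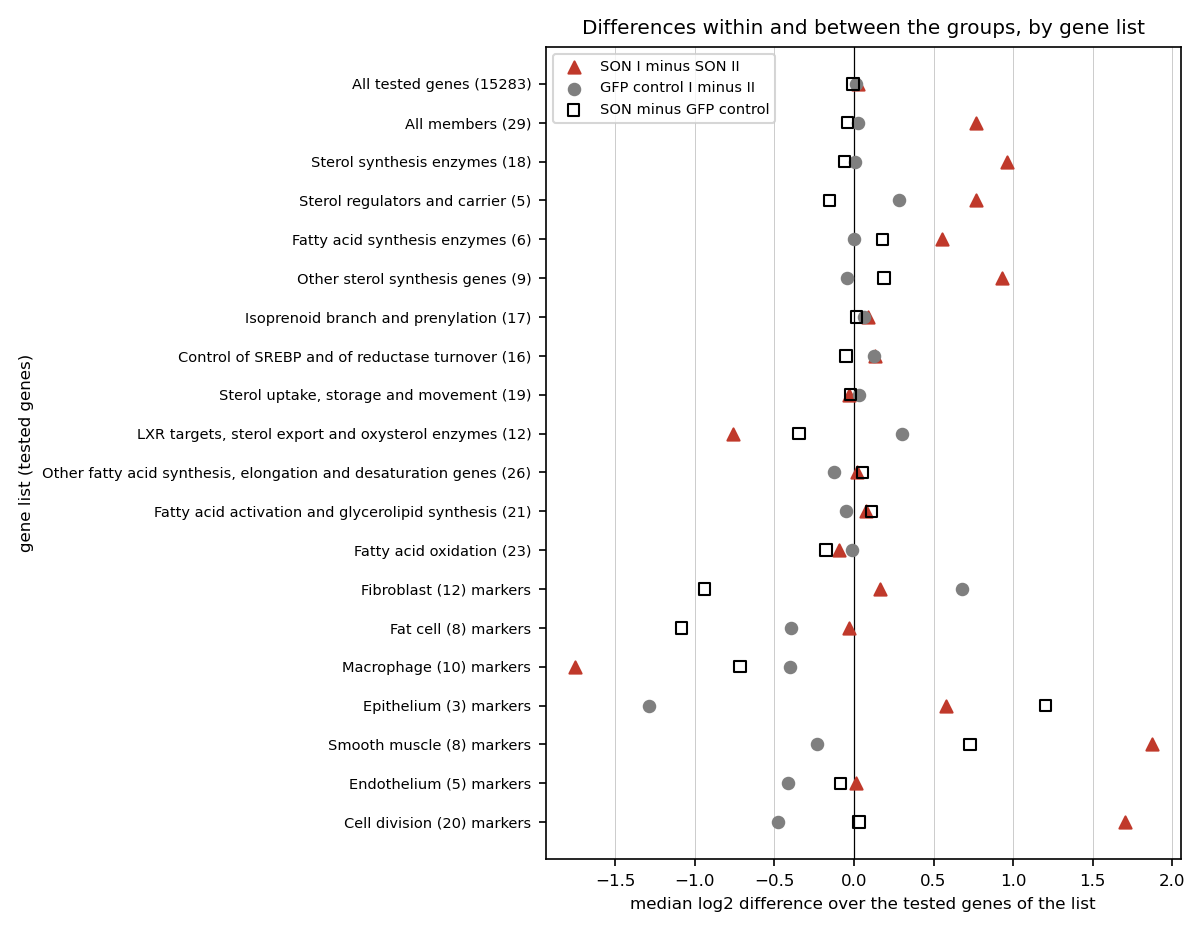
Median log2 difference over the tested genes of each list (x axis; number of tested genes in brackets), within SON (triangles), within the GFP control (circles) and between the groups (squares). For the sterol enzymes the triangle lies at 0.96 while the circle and the square lie near 0, and the genes of sterol export and oxysterols have their triangle at -0.76.

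Further genes of lipid handling were read from 8 lists. Limma called 0 of their 143 tested genes, and an unadjusted p under 0.05 was reached by 4 that were higher and 11 that were lower, against 5.99% and 6.57% of all tested genes, so the share that was lower was close to the background and the share that was higher was under it. The authors' deposited table calls 3 lower and 0 higher, against 2.59% and 1.48% of the genes it tests. Other sterol synthesis genes, 9 tested, had a median between the groups of 0.19 and of 0.93 within SON, with 7 of 9 higher in SON I. The genes with most reads, Cyb5r3 and Cyb5b, which pass electrons to such enzymes, differed little between SON I and II. Cyb5r3 measured 10842 and 11166 in the GFP control, and SON gave 12100 and 13698. Cyb5b measured 3564 and 4226 in the GFP control, against 4426 and 3950 in SON. Lbr, a sterol reductase of the nuclear envelope chosen here after its values were seen, had the order of the sterol enzymes, with 543 and 536 in the GFP control, 990 in SON I and 314 in SON II.

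The branch from farnesyl pyrophosphate to ubiquinone, dolichol and protein prenylation, 17 tested genes, had a median of 0.02 between the groups and 0.09 within SON. Nus1, of dolichol synthesis, was the 1 gene lower at an unadjusted p, with 6337 and 5786 in the GFP control, and SON gave 4438 and 4752 (limma adjusted p = 0.372). The sterol branch and this branch thus had different gaps between SON I and SON II, a difference that was not tested. Among 16 tested genes that control SREBPs or the turnover of sterol proteins the medians were -0.05 and 0.13. At an unadjusted limma p under 0.05, 3 were lower (Insig2, Mbtps2 and Mylip) and 0 higher, against 6.57% and 5.99% of all tested genes. The limma adjusted p was 0.370 for Insig2 and 0.396 for Mbtps2. The authors' deposited table calls Mylip lower there, the ubiquitin ligase of lipoprotein receptors, which measured 1117 and 717 in the GFP control, against 484 and 400 in SON (limma adjusted p = 0.274). Genes of sterol uptake, storage and movement, 19 tested, had medians of -0.02 and -0.03. At an unadjusted limma p under 0.05, 3 were higher (Cav1, Osbpl1a and Osbpl5) and 1 lower (Gramd1b), against 5.99% and 6.57% of all tested genes. Cav1, a membrane protein with many reads, measured 8685 and 12024 in the GFP control, against 20043 and 14535 in SON (limma adjusted p = 0.362). Npc2, the lysosomal sterol carrier with 18651 and 19107 in the GFP control, was at 14752 in SON I and at 22835 in SON II.

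Targets of the oxysterol receptor LXR, with sterol export and oxysterol enzymes, had a median of -0.35 between the groups. Of these, 8 of 12 were negative, against 7752 of all 15283 tested genes. The authors' deposited table calls 2 lower, against 2.59% of the genes it tests. Cyp7b1, an oxysterol hydroxylase, measured 1244 and 487 in the GFP control, and SON gave 158 and 163 (log2 -2.27, limma adjusted p = 0.249; 2.4e-05 in the authors' deposited table). Apoe, a lipoprotein component, measured 746 and 408 in the GFP control, against 168 and 264 in SON. Within SON this list ran opposite to the sterol enzymes: 11 of 12 genes were lower in SON I than in SON II, with a median of -0.76, where 52.5% of all tested genes were higher in SON I. The 10 tested macrophage markers moved the same way, 10 lower in SON I (median -1.75) and 10 negative between the groups (median -0.72), and their part in this list was not tested. Abca1, the cholesterol exporter with the most reads of the list, measured 3294 and 1723 in the GFP control, 1238 in SON I and 2267 in SON II.

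Other genes of fatty acid synthesis, elongation and desaturation, 26 tested, had medians of 0.05 between the groups and 0.02 within SON. Me1, which supplies NADPH for synthesis, measured 3751 and 4972 in the GFP control, and SON gave 4021 and 5133. Genes of fatty acid activation and glycerolipid synthesis, 21 tested, had medians of 0.11 and 0.07. Genes of fatty acid oxidation, 23 tested, had medians of -0.18 and -0.09. Of these, 15 of 23 were negative between the groups, against 7752 of all 15283 tested genes. None of these 3 lists had a gene called by limma or by the authors' deposited table, and at an unadjusted p they held 1 higher and 3 lower, shares under the 5.99% and 6.57% of all tested genes.

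Levels were compared between genes only per length, as RPKM, reads per kilobase of exon scaled to the library's reads in genes. In the GFP control libraries Scd2 was the highest member, at 91.0 and 94.4, followed by Acly at 43.6 and 51.5, Scd1 at 30.7 and 36.9 and Hmgcs1 at 32.2 and 29.3. The ranges of Scd1 and Hmgcs1 overlapped, so their order is not resolved. Cyp51, at 27.0 and 26.1, and Insig1, at 25.9 and 21.2, came next. The lowest were Tm7sf2 at 1.44 and 1.78, Acaca at 3.52 and 3.79 and Lss at 3.74 and 4.13, the last pair overlapping. The length of a gene here joins the exons of all its annotated transcripts, 17074 bases for Acaca, 10787 for Lss and 4403 for Tm7sf2. Exons that these cells may not use lower the RPKM, so the order of genes depends in part on the annotation. Summed over the 18 sterol enzymes, the level per length was 237 and 252 in the GFP control, 313 in SON I and 177 in SON II. Fasn, at 14.9 and 16.0 in the GFP control, stood at 27.6 and 26.0 in SON, near Cyp51 in the GFP control.

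**Figure D4:**
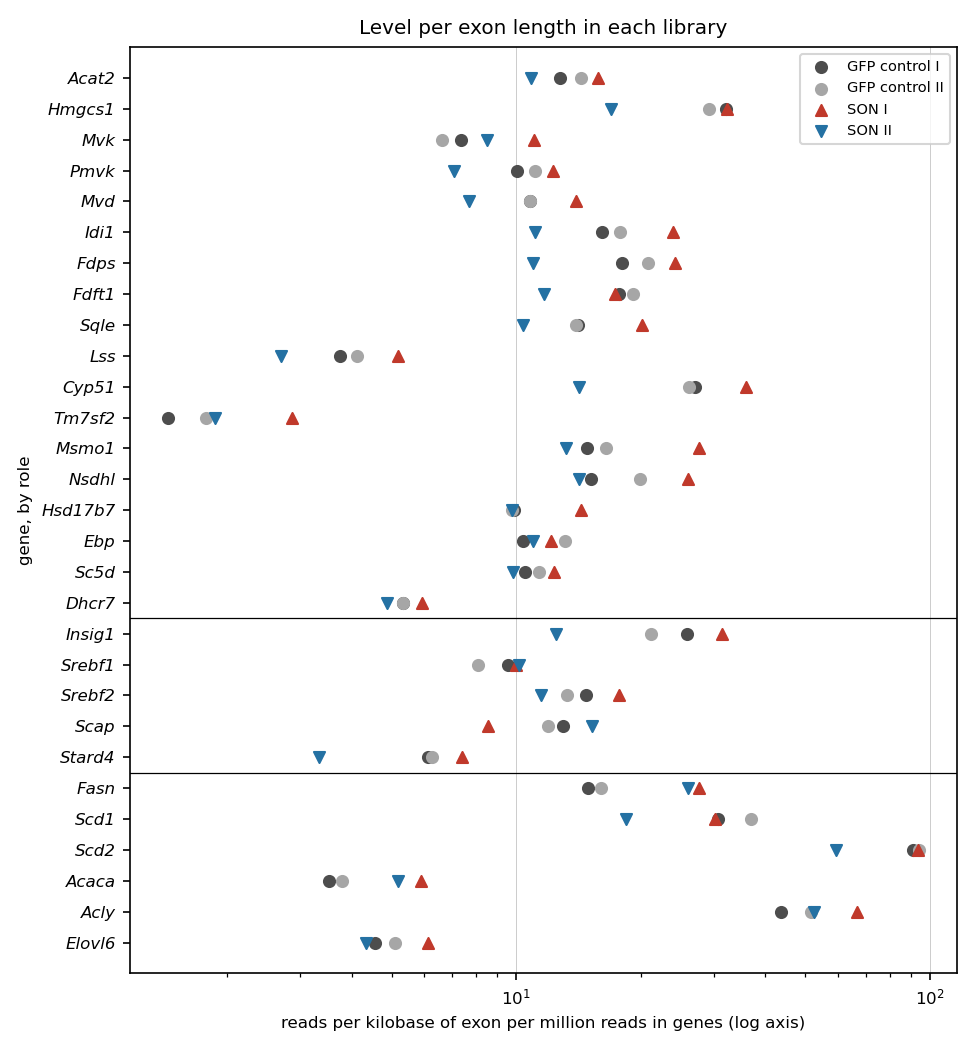
Level of each gene in each library as RPKM, scaled to reads in genes (x axis, log scale), with genes by role on the y axis. Scd2 and Acly lie farthest to the right and Tm7sf2 farthest to the left, and the SON II markers lie left of the GFP control for most sterol enzymes.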

How the data were processed

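Libraries were made with a TruSeq mRNA kit (v2), which keeps no strand, per the labels' protocols. The deposited signal per gene is a read count that the authors divided by 1 size factor per library: divided by the worth of 1 read in its library, 100% of values came out whole within 0.01 reads, which recovered the reads. Per the file headers, the deposited table also has columns named as DESeq2 names them, which hold the mean signal, a log2 fold change with its error, a Wald statistic (a score) and a p-value with its adjusted form. The submitters' processing notes name DESeq2, Subread, featureCounts, STAR 2.4.0j, HTSeq 0.5.3p3, TopHat2 2.0.11, CASAVA 1.8.1 and the build GRCm38 (mm10), with no role or order. The deposited table of repeats was not used here.

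Groups came from the sample titles. Limma 3.58.1 (R 4.3.3) was fitted on log2(value + 1) with a mean trend and two-sided tests, after filterByExpr of edgeR 4.0.16, with Benjamini-Hochberg adjustment over all 15283 tested genes. Alternatives were pseudocounts of 0.1 and 10, other filters and factors, edgeR, DESeq2 1.42.0 and voom on the recovered reads, the replicate block and each library left out. DESeq2 with a library left out was added after the data were seen, as were the comparison of SON I with SON II and its 1.5-fold limit. The fits were also run on simulated counts, which varied alike in all libraries, and no result here rests on that run. The members and lists were chosen with earlier results of these data known. Named genes are the members, the genes called in a list and the 2 with most reads in it, and not every gene that this takes is given. Of the list genes, Spring1 was not found by name. Exon lengths, positions and overlaps came from GENCODE M21 (GRCm38), and exons of Idi1, Lss, Cyp51, Srebf1, Scd2 and Elovl6 also overlap other genes, to a smaller extent than those the report gives. With 2 libraries against 2, an exact permutation test of 1 gene cannot go below p = 0.333.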

Additional observations from a re-analysis of the deposited data

How the results depend on the processing

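With all 4 libraries, limma under other pseudocounts, filters and factors, limma voom and edgeR called 0 members, and the smallest adjusted p of any member over these 10 alternatives was 0.142 (Fasn, replicate block). DESeq2 called 1 member higher. Over limma, voom and edgeR, libraries left out included, the adjusted p of Fasn lay between 0.136 and 1.00. Of the other lipid genes DESeq2 called 3 lower. Over all genes, limma called 5 higher and 3 lower, against 3 higher with a pseudocount of 0.1, 3 and 1 with voom and 236 and 381 with DESeq2. The numerals I and II are not stated to pair the libraries, and the correlation across genes of GFP control I minus II with SON I minus II was 0.22. With the replicate block, limma called 4 higher and 7 lower over all genes and 0 members. The median of all tested genes was -0.03314 with no filter, 0.01145 with edgeR and 0.01703 with DESeq2, against -0.00625.

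Differences near 0 changed sign with all libraries for Idi1 (0.04319 with edgeR, 0.04888 with DESeq2), Sc5d (0.0035 with DESeq2), Dhcr7 (0.0013 with DESeq2) and Srebf2 (0.0019 with TMM, 0.0071 with RLE and 0.0018 with upper-quartile factors, 0.0022 with voom, 0.04223 with edgeR and 0.04768 with DESeq2). With 1 library left out, limma and DESeq2 together gave between 0 and 325 genes higher and between 0 and 324 lower, between 0 and 2 members higher and 0 and 4 lower, and between 0 and 5 other lipid genes higher and 0 and 4 lower. The median of all tested genes lay between -0.02011 and 0.02575, and that of the regulators and carrier between -0.38 and 0.29. With limma 15 members changed sign without SON II and 6 without SON I, against 3 without either GFP control library. The log2 differences over these fits were Acat2 -0.41 to 0.26, Hmgcs1 -0.95 to 0.11, Pmvk -0.67 to 0.26, Mvd -0.59 to 0.40, Idi1 -0.71 to 0.54, Fdps -0.92 to 0.36, Sqle -0.53 to 0.56, Lss -0.64 to 0.43, Cyp51 -1.001 to 0.47, Msmo1 -0.34 to 0.86, Nsdhl -0.39 to 0.62, Hsd17b7 -0.11 to 0.58, Ebp -0.18 to 0.09747, Sc5d -0.26 to 0.21, Dhcr7 -0.22 to 0.19, Insig1 -1.001 to 0.46, Srebf1 -0.02079 to 0.35, Srebf2 -0.38 to 0.38, Scap -0.51 to 0.21, Stard4 -0.99 to 0.29, Scd2 -0.74 to 0.05478, Elovl6 -0.25 to 0.38. Acaca, Acly, Fasn, Fdft1, Mvk, Scd1 and Tm7sf2 kept their sign in all of them. The cause of these changes was not tested.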
